A study of Arabidopsis thaliana with 8 samples.

Results

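The comparison described here is the change in transcript levels after 30 min of abscisic acid (ABA) in Arabidopsis thaliana seedlings that carry the pTA-ANAC096 construct. It rests on 4 of the 8 arrays of the series, taken by their titles: 2 arrays of ANAC096 seedlings with ABA and 2 of ANAC096 seedlings without it. The ANAC096+ABA group consisted of 12-day-old pTA-ANAC096 seedlings of Col-0 that had 30 µM dexamethasone for 1 h, with 2 µM ABA added for the final 30 min. The ANAC096 group had the same age, line and dexamethasone, but no ABA. All seedlings grew in liquid MS medium at 23 °C under 16 h of light and 8 h of dark. The other 4 arrays held seedlings with the empty pTA vector, again under dexamethasone throughout, with ABA (the ABA group, 2 arrays) or without it (the control group, 2 arrays). They were used to estimate the spread and to ask at which probes the ABA effect differed between the lines.

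ABA is the hormone that plants accumulate under drought and osmotic stress. Its receptors, once bound, block a group of protein phosphatases, which frees protein kinases that activate transcription factors of the bZIP class, and those factors switch on stress genes. NAC proteins such as ANAC096 form a large plant family of transcription factors, several of which act in the same stress responses. In pTA vectors, a steroid-activated transcription factor turns on the inserted gene once dexamethasone is given. Every group had dexamethasone, so the comparison shows the effect of ABA on plants that had already been in dexamethasone for 30 min, set against plants that stayed in it for the whole 1 h. No array of the time at which ABA was added was analysed here. Whether the line is a single transformant is not given in the sources used here, nor how the 2 biological replicates of each group were grown or pooled. P-values therefore speak of the array-to-array spread seen here. In whole seedlings, fewer cells of a type and less RNA per cell cannot be told apart.

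The array maker's probe identifiers were not paired with genes in the sources used here: 0 of the 43603 identifiers were found in the gene table. No transcript can therefore be named, ANAC096 itself could not be checked in the line, and neither ABA marker genes nor tissue markers could be read. The results below describe probes, of which 4 are given by identifier: the 2 largest rises and 2 largest falls among called probes well above background on all 4 arrays of the line. Different probes may report the same gene.

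All 8 arrays lay on 1 slide. The ANAC096 arrays occupied slide columns 3 and 4, in slide row 2 with ABA and in slide row 1 without it. The empty vector arrays occupied columns 1 and 2, with ABA in row 2 and without it in row 1. ABA and the row of the slide therefore cannot be told apart in either line, nor can line and slide columns. On the ANAC096 arrays with ABA, 75.08% and 75.83% of probes were well above background, against 78.08% and 78.93% on those without it. On all 4, 0 spots were saturated. The median signal of negative-control spots was 9.80 and 11.7 intensity units with ABA, against 5.89 and 7.47 units without. The empty vector arrays differed in the same way. With ABA, 75.07% and 75.94% of their probes were well above background, against 77.77% and 79.84% without. Their negative-control signal was 10.2 and 9.78 units with ABA, against 7.25 and 6.24 units without. The part of slide row and of this background in the results was not tested.

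Every level below is the log2 intensity of a probe relative to the 75th percentile of its array, and every change is ANAC096+ABA minus ANAC096. The E1A spike-ins, foreign transcripts added to the RNA before labelling, did not stay level on this scale. Their mean level over 7 spike-ins was -0.17 and 0.08 on the arrays with ABA, against 0.75 and 0.62 on those without. Each of the 7 was lower with ABA, by log2 differences of -0.83 to -0.58. The mean difference was -0.73, with a standard error of 0.14 from 2 arrays in each group. With 2 arrays in each group, the smallest two-sided p that an exact permutation test allows is 0.33. In the empty vector line the spike-ins moved the other way, with a mean level of 0.313 with ABA and 0.058 without. The ANAC096 group without ABA thus had the highest spike-in level of the 4 groups. Scaling to the spike-ins raises the change by 0.73 for every probe with a value on all 4 arrays of the line. For the 458 tested probes that lack one, the rise depends on which array is missing. Each direction below is therefore relative to the bulk of transcripts. Values on the spike-in scale are given beside the main results.

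**Figure D1:**
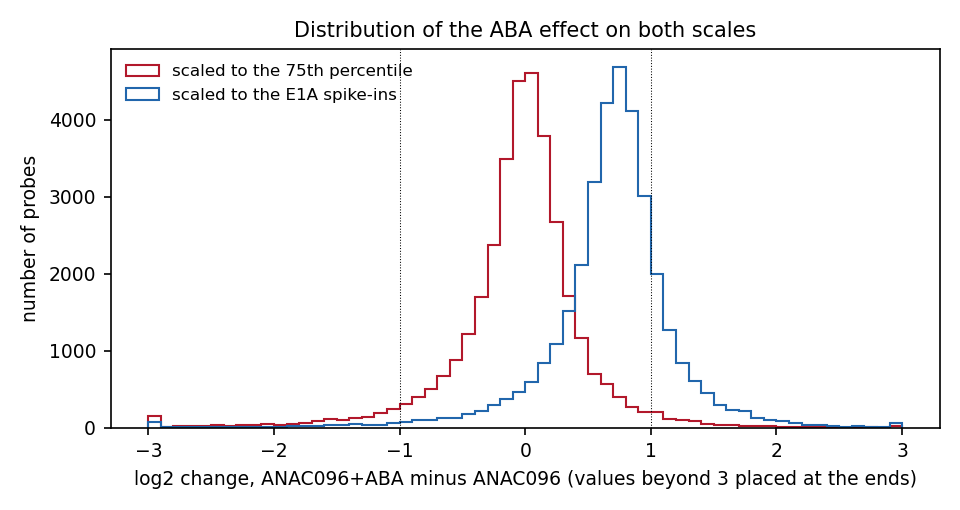
Number of tested probes (vertical axis) by log2 change of ANAC096+ABA minus ANAC096 (horizontal axis), scaled to the 75th percentile (red) and to the E1A spike-ins (blue). The spike-in curve lies about 0.73 to the right of the other, and the dotted lines mark 2-fold changes.

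Scaled to the 75th percentile, falls of 2-fold or more with ABA were more numerous than rises of that size in the ANAC096 line, and reached further. Of 34503 tested probes, limma called 15572 (45.1%) at a Benjamini-Hochberg adjusted p under 0.05, of which 7641 (22.1%) were higher and 7931 (23%) lower. This near balance leaned the other way with quantile normalization (8455 higher, 7239 lower), with median scaling (8565 and 7185), without a filter on dim probes (9016 and 7389), with only the probes measured above background by all 8 arrays (7597 and 7424) or by the 4 arrays of the line (7726 and 7482), without ANAC096 replicate 1 (5916 and 5717), and with the authors' deposited values (9002 and 7835). At 2-fold or more, 2156 probes (6.25%) were called, of which 728 (2.11%) rose and 1428 (4.14%) fell. At 4-fold or more 88 rose and 411 fell, and at 8-fold or more 18 rose and 130 fell. These large changes were fewer with normexp background correction (39 and 207 at 4-fold, 3 and 48 at 8-fold) and with the authors' deposited values (47 and 210, 4 and 52). Among probes measured above background by all 4 arrays of the line there were 57 and 236 at 4-fold, and 6 and 51 at 8-fold. With spike-in scaling 388 rose and 173 fell at 4-fold, and 61 and 69 at 8-fold. The median log2 change of the 728 risen probes was 1.27 (interquartile range 1.09 to 1.59), and that of the 1428 fallen probes -1.5 (-2.11 to -1.19). Standard errors had a median of 0.0684.

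Scaling to the spike-ins, which raises every change, kept all of the risen probes and fewer of the fallen ones. With it all 728 were called at 2-fold or more, among 6529 such rises in all. Of the 1428 fallen probes, 1266 were still called lower with spike-in scaling, and 532 of them by 2-fold or more, among 547 such falls in all. On that scale rises outnumbered falls, with 28719 calls higher and 1287 lower over all sizes. Besides the spike-ins, the data were fitted with normexp background correction, quantile normalization, median scaling, the authors' deposited values and slide column as a block. In all 6 of these, 699 of the 728 risen and 1222 of the 1428 fallen probes were called in the same direction, and 476 and 428 of them at 2-fold or more. Over the 20 alternatives run, 0 of the 728 and 0 of the 1428 were called in the opposite direction. Several of these, such as leaving out an empty vector array or changing the probe filter, kept the line's own values. The direction could not turn in those.

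The risen probes had a median level of -1.45 and -1.52 on the arrays with ABA, against -2.88 and -2.87 on those without. Fallen probes had a median level of -4.63 and -4.62 with ABA, against -2.77 and -2.82 without. The fallen probes were thus at about the same level as the risen ones without ABA. Over all tested probes the medians were -1.31 and -1.33 with ABA, against -1.31 and -1.32 without, so both sets lay below the middle of the array. Tested probes were also split into 4 equal classes by mean level over all 8 arrays. In the dimmest class 3.16% rose and 8.29% fell by 2-fold or more. In the brightest class 1.01% rose and 2.14% fell. Falls of that size outnumbered rises in each of the 4 classes, and the median standard error was 0.1294 in the dimmest and 0.0594 in the brightest. The dimmest class held 715 of the 1428 falls. Its median change was -0.138, against 0.002, 0.014 and 0.028 in the other classes.

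**Figure D2:**
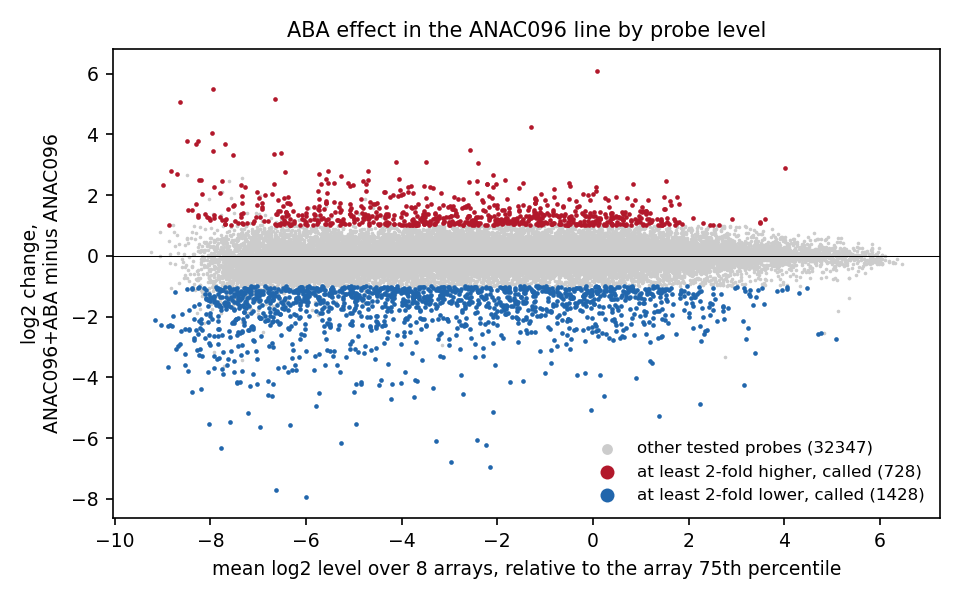
Log2 change of ANAC096+ABA minus ANAC096 (vertical axis) against the mean log2 level over 8 arrays (horizontal axis) for 34503 tested probes, one point each. The 1428 probes called lower by 2-fold or more (blue) reach -7.93, and the 728 called higher (red) reach 6.1.

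Some fallen probes could no longer be measured with ABA. Among the 1428 fallen probes, 1012 were well above background on all 4 arrays of the line, and 355 were not well above background on either array with ABA. Among the 728 risen probes, 649 were well above background on all 4 arrays, and 52 were not so on either array without ABA. Where a probe is dim on both arrays of a group, a bound on its change was computed beside the measured change. The bound takes, on each dim array, the detection floor (the weakest signal of any probe well above background) or the probe's own signal where that is higher. Of the called probes with values on all 4 arrays, 488 passed the background criterion on both arrays without ABA and on neither with it. The bound was above 1 for 477 of them, reached 2-fold for 199 and 8-fold for 25, and the largest was at least 116-fold lower with ABA. The opposite pattern was shown by 48 probes, with a bound of 2-fold or more for 38 and of 8-fold or more for 4. The largest of these was at least 15.9-fold higher with ABA. Both arrays with ABA had a higher negative-control signal and fewer probes well above background. The part of this in these counts was not tested. Among the 31999 probes well above background on all 4 arrays, 650 rose and 1013 fell by 2-fold or more, so falls outnumbered rises there too.

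The 2 replicates can be set against each other, because each slide column held 1 array with ABA and 1 without. Across the 34045 probes with a value on all 4 arrays, the changes in column 3 and column 4 correlated at Pearson r 0.854 and Spearman rho 0.829, a description across probes, which are not independent replicates. In column 3 alone, 812 probes exceeded a 2-fold rise and 1731 a 2-fold fall. In column 4 alone these were 822 and 1594. The median change of the risen probes was 1.29 in column 3 and 1.29 in column 4, and that of the fallen probes -1.54 and -1.49. Of the risen probes with all 4 values, 585 of 719 (81.4%) were past 2-fold in both columns, as were 1206 of 1415 (85.2%) fallen ones. All 719 and all 1415 had the same sign in both columns, which the choice of called probes favours. The columns disagreed by more than 1 log2 unit at 1.74% of the 34045 probes, at 25 of the 719 risen and at 85 of the 1415 fallen probes. Among the 18 probes that rose 8-fold or more, 6 disagreed by that much, as did 23 of the 130 that fell 8-fold or more. With slide column as a block, 732 probes rose and 1412 fell by 2-fold or more.

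**Figure D3:**
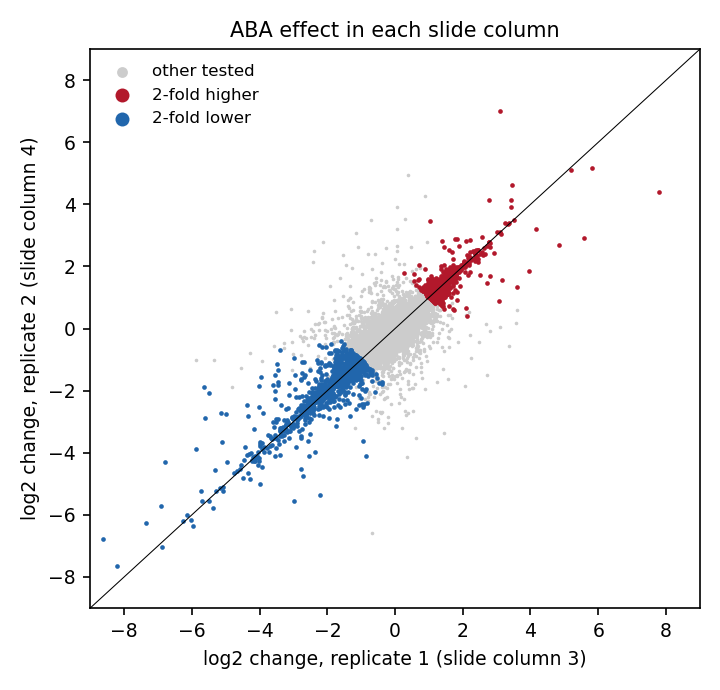
Log2 change with ABA in slide column 3 (replicate 1, horizontal axis) and column 4 (replicate 2, vertical axis), one point for each of 34045 probes, with the line of equality. Over all points r was 0.854. The columns differed by more than 1 log2 unit for 25 of the 719 risen and 85 of the 1415 fallen probes, against 1.74% of all. The choice of called probes favours agreement between the columns.

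Spots printed in duplicate could be compared within arrays. For 283 risen probes with 2 usable spots on all 4 arrays, each spot alone showed a rise of 2-fold or more in 237, and the median difference between the changes from the 2 spots was 0.095. For 541 fallen probes both spots were past 2-fold in 459, with a median difference of 0.117. The direction was the same at both spots for all of these 283 and 541 probes, which the choice of probes by the mean of their spots favours, and for 84.3% of all 13343 tested probes with 2 spots. Over all tested probes, replicate arrays differed by a median of 0.065 with ABA and 0.07 without.

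The deepest falls measured on all 4 arrays were tight between replicates. A_84_P16247 had levels of -5.95 and -6.09 in ANAC096+ABA, against 0.95 and 0.95 in ANAC096. The groups were far apart, and the replicates lay close together in both. This was a 125-fold fall (log2 change -6.97, SE 0.07, limma adjusted p 6.6e-07), or -6.24 with spike-in scaling. In the empty vector line the same probe had -2.67 and -2.6 with ABA, against -0.8 and -0.94 in control, a 3.4-fold fall (log2 change -1.76, SE 0.07, limma adjusted p 1.6e-05). The fall was larger in the ANAC096 line by a log2 difference of -5.21 (SE 0.1, limma adjusted p 7.9e-06), or -4.22 with spike-in scaling.

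A_84_P845967 behaved in a like way, with levels of -5.03 and -5.09 in ANAC096+ABA, against 1.24 and 1.12 in ANAC096. It fell 75.6-fold (log2 change -6.24, SE 0.06, limma adjusted p 6.6e-07), or by a log2 change of -5.51 with spike-in scaling. In the empty vector line its levels were -3.03 and -3.08 with ABA, against -2.01 and -1.91 in control, which is a 2.14-fold fall (limma adjusted p 6.3e-05). The difference between the lines was -5.15 on the log2 scale (SE 0.09, limma adjusted p 7.8e-06), or -4.16 with spike-in scaling. For both probes the ANAC096 arrays were the highest and the ANAC096+ABA arrays the lowest of the 8, on the spike-in scale too.

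The largest rises by the same criteria varied far more between replicates. A_84_P860475 had levels of 3.91 and 1.17 in ANAC096+ABA, against -3.9 and -3.22 in ANAC096. Both arrays with ABA lay above both without, but the arrays with ABA lay far apart. The rise was 68.7-fold (log2 change 6.1, SE 0.93, limma adjusted p 0.0054), with changes of 7.81 in column 3 and 4.4 in column 4. Without ANAC096+ABA replicate 1 it was 26.5-fold, without replicate 2 it was 177-fold, and with spike-in scaling 114-fold. In the empty vector line the probe had levels of 0.11 and 0.88 with ABA, against 1.58 on the 1 control array with a usable spot. Its change there, fitted without control replicate 1, was -1.09 (SE 1.14, limma adjusted p 0.47). The difference between the lines was 7.19 (SE 1.47, limma adjusted p 0.016), but the adjusted p was 0.085 with slide column as a block, 0.052 without ANAC096 replicate 1 and 0.053 without ABA replicate 1. Over all alternatives that gave a value, this difference ranged over 5.82 to 8.56, with 8.16 on the spike-in scale.

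A_84_P836860 had levels of 1.32 and -0.61 in ANAC096+ABA, against -4.25 and -3.53 in ANAC096. It rose 19-fold (log2 change 4.24, SE 0.66, limma adjusted p 0.0034), or 9.71-fold without ANAC096+ABA replicate 1, 37-fold without replicate 2 and 31.3-fold with spike-in scaling. In the empty vector line it had -1.74 and -1.09 with ABA, against 0.1 and -0.64 in control (log2 change -1.15, SE 0.66, limma adjusted p 0.2). The ABA effect in the ANAC096 line was higher by 5.39 (SE 0.93, limma adjusted p 0.0063). This difference was 4.43 without ANAC096+ABA replicate 1, 6.36 without replicate 2 and 6.38 with spike-in scaling. In both rising probes the ANAC096 arrays were the lowest of all arrays with a usable spot, and lay below every control array. The same array, ANAC096+ABA replicate 1, was the highest for both.

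**Figure D4:**
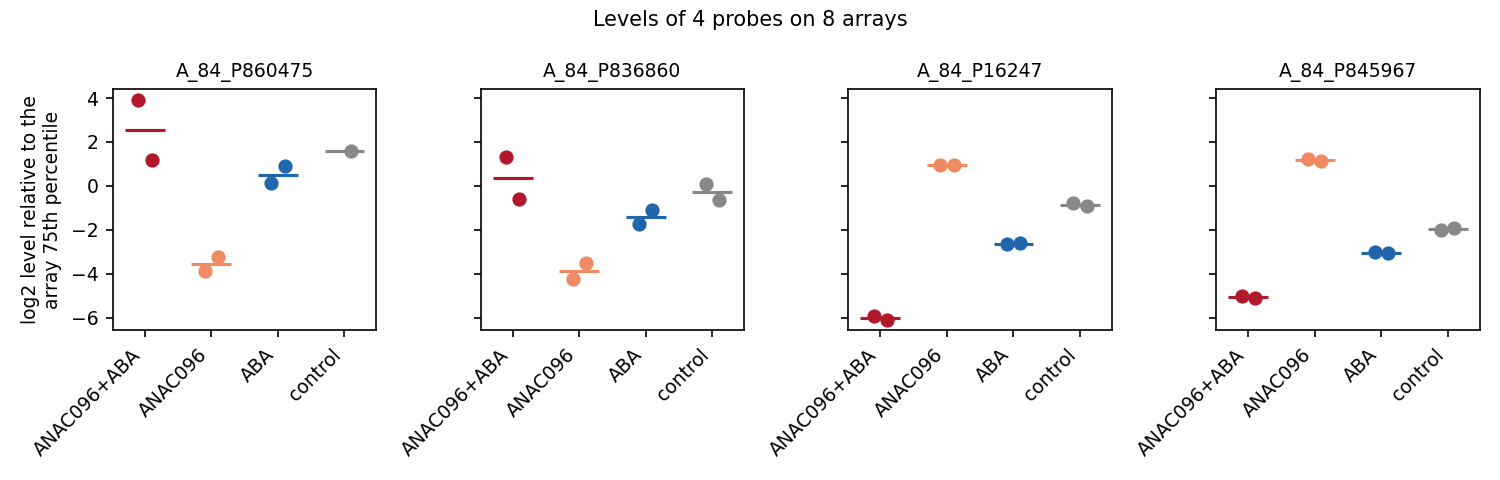
Log2 level relative to the array 75th percentile (vertical axis) of the 2 largest rises and 2 largest falls among probes well above background on all 4 ANAC096 line arrays, shown on each array by group. Points are arrays, bars are means of 2, and A_84_P860475 has 1 usable control array; the 2 fallen probes have nearly coincident replicates and the 2 risen ones do not.

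Levels in all 4 groups were then set side by side for the risen and fallen probes. For the 1428 fallen probes the median levels were -4.63 and -4.62 in ANAC096+ABA, -2.77 and -2.82 in ANAC096, -3.87 and -3.86 in ABA, and -3.39 and -3.33 in control. ANAC096+ABA was the lowest of the 4 group means for 1134 of them (79.4%, against 29.9% of all tested probes), and ANAC096 the highest for 948 (66.4%, against 22.3%). For 667 (46.7%, against 7.73%) both held. The choice of fallen probes favours these orders. Relative to the empty vector line, their median log2 difference was -0.87 with ABA (ANAC096+ABA minus ABA) and 0.54 without it (ANAC096 minus control), while over all tested probes these medians were -0.02 and -0.04. With ABA, 623 of the 1428 (43.6%) were at least 2-fold below the empty vector line and 27 (1.89%) above it, against 3.61% and 4.17% of all tested probes. Without ABA, 67 (4.69%) were at least 2-fold below it and 468 (32.8%) above it, against 2.57% and 7.35%. With spike-in scaling the median without ABA turned to -0.09, with 240 of the 1428 (16.8%) at least 2-fold below the empty vector line and 241 (16.9%) above it, against 20.3% and 2.9% of all tested probes, whose median was -0.67. The median with ABA was -0.52 on that scale, against 0.33 over all tested probes. Both orders held together there for 246 probes (17.2%, against 0.765%). These comparisons share the ANAC096 line's arrays with the ABA effect that chose the probes. Levels of the 2 lines also come from different slide columns, so line and slide column cannot be told apart in them.

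For the 728 risen probes the median levels were -1.45 and -1.52 in ANAC096+ABA, -2.88 and -2.87 in ANAC096, -2.57 and -2.58 in ABA, and -3.86 and -3.92 in control. Control was the lowest of the 4 group means for 575 of them (79%, against 25.2% of all tested probes), and for 564 (77.5%, against 13.3%) control was the lowest and ANAC096+ABA the highest. The choice of risen probes favours these orders. The ANAC096 group was the lowest for 123 (16.9%, against 24.6%), as it was for both risen probes given above. Relative to the empty vector line, the median log2 difference was 0.99 with ABA and 0.87 without it. With ABA, 360 of the 728 (49.5%, against 4.17%) were at least 2-fold above the empty vector line and 7 (0.962%, against 3.61%) below it. Without ABA, 324 (44.5%, against 7.35%) were above it and 35 (4.81%, against 2.57%) below it. With spike-in scaling these medians were 1.35 with ABA and 0.24 without, against 0.33 and -0.67 over all tested probes. On that scale ANAC096 was the lowest group for 282 risen probes (38.7%, against 75.1%), and control for 414 (56.9%, against 8.39%). As for the fallen probes, these comparisons share arrays with the ABA effect that chose the probes, and line and slide column cannot be told apart.

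Risen probes mostly rose with ABA in the empty vector line too. In both lines ABA coincides with slide row and with a higher negative-control signal. The part of these in the shared rises was not tested. Limma called 47.2% of all tested probes in the empty vector line. Of the 728, it called 589 (80.9%) higher with ABA in the empty vector line, where 18.5% of all tested probes were called higher. It called 28 (3.85%) lower there, where 28.7% of all probes were. A rise of 2-fold or more was called there for 406 (55.8%), against 4.23% of all tested probes. Their median log2 change was 1.27 in the ANAC096 line and 1.16 in the empty vector line. The test of the difference between the lines called 14492 of all tested probes (42%), 23.2% higher and 18.8% lower in the ANAC096 line. At 2-fold or more it called 7.77% of tested probes, 1.5% higher (517) and 6.27% lower (2163), a split that spike-in scaling turned round (18547 higher and 600 lower). Among the risen probes it called the rise larger in the ANAC096 line for 275 (37.8%) and smaller for 222 (30.5%), and did not call 231. Of the 18 that rose 8-fold or more, 11 were not well above background on either ANAC096 array without ABA. The 6 that were so on all 4 arrays of the line had a median of 3.3 in the ANAC096 line and 2.5 in the empty vector line.

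Scaled to the 75th percentile, fallen probes mostly fell less far in the empty vector line, or not at all. Limma called 603 of the 1428 (42.2%) lower with ABA in the empty vector line, against 28.7% of all tested probes, and 259 (18.1%) higher, against 18.5%, and did not call 566. A fall of 2-fold or more was called there for 237 (16.6%), against 1.85% of all tested probes. The median log2 change was -1.5 in the ANAC096 line and -0.2 in the empty vector line. The difference between the lines was called lower for 1148 (80.4%, against 18.8% of all tested probes) and higher for 29 (2.03%, against 23.2%). This share was 74.9% for falls of 2- to 4-fold, 92.5% for falls of 4- to 8-fold and 96.9% for falls of 8-fold or more. The probes were chosen on arrays that also enter the difference, which favours a difference in their direction. Of the 130 deepest falls, 66 were not well above background on either array with ABA. Their measured changes rest on signals too weak to measure and are not minimum sizes. Of the 488 called probes that passed the background criterion only without ABA, the bound reached 8-fold for 25. The 51 measured on all 4 arrays of the line had a median of -3.85 in the ANAC096 line and -0.5 in the empty vector line. With spike-in scaling the median log2 change of the 1428 was -0.77 in the ANAC096 line and -0.46 in the empty vector line, and the difference was called lower for 652 (45.7%, against 3.25% of all tested probes) and higher for 218 (15.3%, against 83.1%). For the 728 risen probes these medians were 2 and 0.91 on that scale, with the difference called higher for 539 (74%, against 83.1%) and lower for 66 (9.07%, against 3.25%). The empty vector line alone had 524 of them called higher (72%, against 8.42%).

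**Figure D5:**
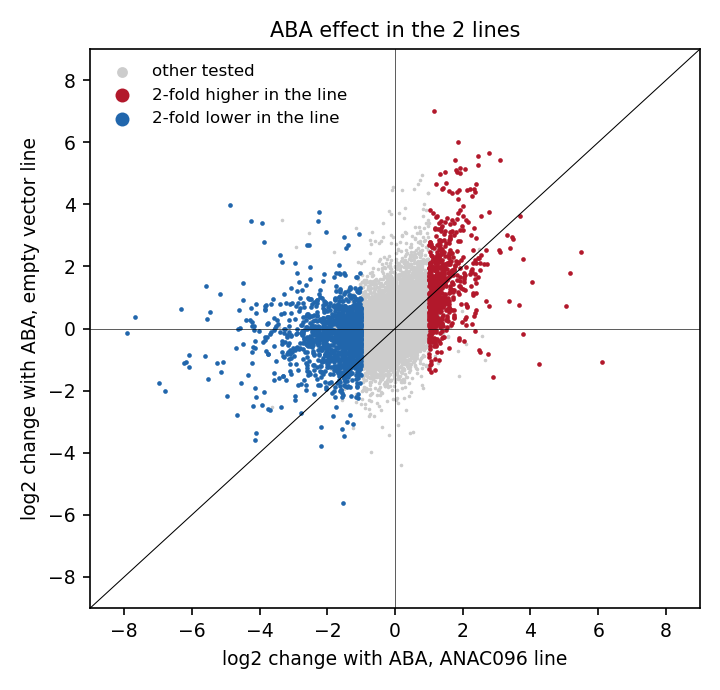
Log2 change with ABA in the ANAC096 line (horizontal axis) and in the empty vector line (vertical axis), scaled to the 75th percentile, one point per probe, with the line of equality. Probes risen by 2-fold or more in the ANAC096 line (red, 728) lie mostly above 0 in the empty vector line, while the fallen ones (blue, 1428) centre near -0.2 there.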

How the data were processed

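Per the file headers, the deposited linear spot intensity values came from Feature Extraction 10.7.1.1 (protocol GE1_107_Sep09, array design 031025). Flag columns of the deposited files (other values, 0 or 1) mark spots well above background, saturated or outlying. The log2 values that the authors deposited beside them equal quantile-normalized log2 spot medians within 5e-09.

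Here, log2 of the background-subtracted processed signal minus its 75th percentile over all 62976 spots of the array was used. The 1319 control spots and outlier-flagged spots (376 to 1230 per array) were left out, and spots of a probe were averaged. Of 43603 probes, 34503 (79.1%) were tested: those that exceeded background clearly on both arrays of some group and had a value in every group. Of these, 884 lacked a value on 1 or more arrays, which the fit left out. A limma 3.58.1 model with 1 mean per group was fitted to all 8 arrays (R 4.3.3, lmFit and eBayes, 4 residual degrees of freedom, prior 1.99), with Benjamini-Hochberg adjustment over all tested probes and a threshold of 0.05. The number of arrays limits the precision. The scripts were tested on simulated data. The scanner files used here hold spot medians, so normexp correction (offset 50) used the median in place of the mean signal. The spike-in scale is the mean of 7 of 10 E1A probes, those well above background in at least 0.9 of their spots on every array.

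Groups came from sample titles. The named probes are the 2 largest rises and 2 largest falls that were called, well above background on all 4 arrays of the line, and without overlap between groups. Gene lists drawn up for this work could not be used without gene names. The comparison and the rules were chosen with earlier results of these data known.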

Additional observations from a re-analysis of the deposited data

Results flagged for a closer look

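The ABA effect of all 4 probes given by identifier differed between the lines in limma's test of that difference. The ABA effect in the ANAC096 line minus that in the empty vector line was 7.19 for A_84_P860475, 5.39 for A_84_P836860, -5.21 for A_84_P16247 and -5.15 for A_84_P845967 on the log2 scale. The first rests on 7 arrays, as control replicate 1 had no usable spot. Its call was lost with slide column as a block (limma adjusted p 0.085), without ANAC096 replicate 1 (0.052) and without ABA replicate 1 (0.053). These probes were chosen by their change in the ANAC096 line, which favours such a difference.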

How the results depend on the processing

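Leaving out 1 array at a time gave 11191 to 17236 probes called for the ABA effect in the ANAC096 line, 719 to 751 at least 2-fold higher and 1371 to 1489 at least 2-fold lower. For the difference between the lines the ranges were 9508 to 15491 called, 490 to 560 at least 2-fold higher and 1993 to 2547 at least 2-fold lower, the 9508 being without ABA replicate 1. Where a group kept 1 array, it was assumed to vary like the other groups. Spike-in scaling gave 30006 called, 6529 higher and 547 lower at 2-fold in the line, and 29778, 18547 and 600 for the difference; its shift is shared by all probes of an array, and the prior degrees of freedom were 12.24, so these counts do not carry the error of the shift. Normexp correction gave 180 probes at least 2-fold higher and 1801 lower for the difference. The authors' deposited values gave 300 there, and 932 at least 2-fold lower in the line. The other totals at any fold, and the other 2-fold rises and falls, stayed within 1.5 times those reported for the line and for the difference. Counts split by direction at any fold, counts at 4-fold and 8-fold and counts in the empty vector line did not all do so. Falls of 2-fold or more in the empty vector line numbered 638, against 272 with normexp correction and 317 with the authors' values. Log2 changes of the named probes in the line kept their direction and call in every alternative run, with no value for A_84_P860475 in 1 of them. In several alternatives, such as leaving out an empty vector array, the line's own values were unchanged, so the direction could not turn. The log2 changes ranged over 4.73 to 7.47 for A_84_P860475, 3.28 to 5.21 for A_84_P836860, -7.04 to -6.24 for A_84_P16247 and -6.3 to -5.51 for A_84_P845967. The replicate block changed no call of a named probe and gave 14596 calls in the line, with 726 higher and 1420 lower at 2-fold. Replicates with the same number did not deviate together (r 0.022 in the ANAC096 line, -0.048 in the empty vector line), so the numbers are not taken as pairs. Slide row could not be fitted, since it coincides with ABA. The cause of the changes with normexp correction and with the authors' values was not tested.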
